A study of Homo sapiens with 29 samples.

Results

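The genes described here are 9 parts of the Notch signalling pathway, taken by name from a deposited table of 23710 gene symbols: the receptors NOTCH1, NOTCH2 and NOTCH3, the ligands JAG1 and JAG2, the gamma-secretase subunit NCSTN, the DNA-binding factor RBPJ and the target repressors HES1 and HEY1. All 9 are in the table, and 63 other genes of the pathway were counted beside them. They were chosen by name, with earlier results of these data known. SNW1, which was knocked down in the study, encodes a coregulator that binds RBPJ and the Notch intracellular domain.

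Notch receptors are membrane proteins that are activated by ligands on a neighbouring cell. Binding lets ADAM proteases and then gamma-secretase, the complex in which nicastrin (NCSTN) holds the substrate, cut the receptor, and the freed intracellular domain enters the nucleus and joins RBPJ and Mastermind proteins to switch on genes such as HES1 and HEY1. Without that domain RBPJ recruits corepressors, and SNW1 is known as a partner of both states. In the lung, Notch signalling is known for its part in the choice between secretory, ciliated and neuroendocrine cell fates.

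RNA was sequenced from H460 and H2122, established human lines of non-small cell lung cancer with mutant KEAP1, the adaptor through which the transcription factor NRF2 is normally degraded. H460 cells carried short hairpin RNAs against SNW1 (shSNW1), NR0B1 (shNR0B1), NRF2 (shNRF2, gene NFE2L2) or GFP (shGFP, the control) for 72 h, and H2122 cells carried shNRF2 or shGFP for 24 h. NR0B1, also called DAX1, is a nuclear receptor without a DNA-binding domain of the usual kind that represses transcription. In the compound experiment, H460 cells received 30 µM of BPK29, 30 µM of BPK9 or the solvent DMSO for 12 h. Each of these 9 groups has 3 libraries of polyadenylated RNA, and all groups, controls included, consist of cell lines with no matched normal cells. The number of hairpins per target and whether the cells were clones or pools are not stated in the labels, nor how the 3 libraries of a group were made, so each p-value refers to the spread between libraries alone, and that spread may be technical.

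Levels are FPKM, a read count divided by gene length and scaled for depth, and are given as mean ± SD over 3 libraries unless each library is named. Changes are differences of log2(FPKM + 1) with their standard error (SE), which understate the change of low genes, and a gene is called when its Benjamini-Hochberg adjusted p over all genes tested in limma is under 0.05. Reads recovered per library numbered 16709089 to 24612772 for the knockdowns and 19077062 to 24823947 for the compounds. SNW1 had 32.2 ± 1.77 FPKM in shSNW1 cells and 51.2 ± 1.65 FPKM in shGFP cells. NR0B1 had 18.2 ± 0.924 FPKM in shNR0B1 cells and 47.6 ± 1.69 FPKM in shGFP cells of H460. NFE2L2 had 26.8 ± 1.04 FPKM in shNRF2 and 43.3 ± 1.54 FPKM in shGFP cells of H460, and 26.6 ± 0.852 FPKM in shNRF2 and 58.5 ± 1.01 FPKM in shGFP cells of H2122. NR0B1 was also lower after NRF2 knockdown, with 9.06 ± 0.27 FPKM in shNRF2 and 47.6 ± 1.69 FPKM in shGFP cells of H460, and 0.966 ± 0.0395 FPKM in shNRF2 and 18.7 ± 1.17 FPKM in shGFP cells of H2122. In H460 shSNW1 cells NR0B1 (59.9 ± 0.945 FPKM) and NFE2L2 (57.3 ± 0.912 FPKM) were higher than in shGFP cells. NFE2L2 was also higher in shNR0B1 cells (54.5 ± 1.54 FPKM), where SNW1 had 50.9 ± 1.49 FPKM. SNW1 was lower in H460 shNRF2 cells, at 44.4 ± 1.37 FPKM. In H2122 SNW1 had 51.8 ± 1.47 FPKM in shNRF2 and 47.9 ± 0.458 FPKM in shGFP cells. Keratins KRT8, KRT18 and KRT19 averaged 284 FPKM or more in all 6 groups, but in H460 the epithelial markers EPCAM and CDH1 averaged at most 1.29 and 0.0301 FPKM, while in H2122 shGFP cells they averaged 333 and 75.7 FPKM. Markers of blood vessel cells summed to at most 0.379 FPKM in any library, and the immune markers PTPRC and CD3E averaged at most 0.0164 FPKM in any group.

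The stretch of 200 bases before the annotated start is shown for HES1, the classical Notch target, for RBPJ, whose product reads the motif, and for NCSTN, the gene with the largest change of the 8 tested in H460. Capitals mark the RBPJ core motif TGGGAA or, on the opposite strand, TTCCCA. The HES1 stretch is chr3:194135948-194136147 (plus strand), the RBPJ stretch is chr4:26319546-26319745 (plus strand, 1 of 5 annotated RBPJ starts) and the NCSTN stretch is chr1:160343183-160343382 (plus strand), all from RefSeq on GRCh38.p14, 5′ to 3′.
HES1: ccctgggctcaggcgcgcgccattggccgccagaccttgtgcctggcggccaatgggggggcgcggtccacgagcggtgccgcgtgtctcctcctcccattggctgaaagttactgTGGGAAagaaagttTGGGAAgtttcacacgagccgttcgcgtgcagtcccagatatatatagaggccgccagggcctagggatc
RBPJ: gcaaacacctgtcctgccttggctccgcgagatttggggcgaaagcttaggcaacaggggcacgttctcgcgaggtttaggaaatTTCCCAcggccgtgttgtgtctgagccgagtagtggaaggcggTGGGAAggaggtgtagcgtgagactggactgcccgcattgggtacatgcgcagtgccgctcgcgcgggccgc
NCSTN: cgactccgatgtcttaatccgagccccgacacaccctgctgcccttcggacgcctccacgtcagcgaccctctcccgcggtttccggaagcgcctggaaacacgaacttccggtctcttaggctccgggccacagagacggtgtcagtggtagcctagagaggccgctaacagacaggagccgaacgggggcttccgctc
The HES1 promoter holds the core motif at 84 and 70 bases before the start, both on the strand of the gene, and the copy at 84 lies inside the longer form GTGGGAA. The RBPJ promoter holds it at 72 bases before the start on the strand of the gene and at 115 bases on the opposite strand, and both copies lie inside the longer form. RefSeq promoter windows of 300 bases (250 before to 50 after the start) were found for 8 of the 9 genes, 12 windows in all, and the other windows, NCSTN's included, hold neither form on either strand. Of all 35116 windows, 24.0% hold TGGGAA and 6.25% hold GTGGGAA on either strand. The antioxidant response element TGACNNNGC, the motif of NRF2 with its small MAF partners, is in 13.3% of all windows and in none of these 12. A match describes letters in the window and not a bound site.

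In H460, NCSTN was higher in all 3 knockdowns, while the receptors moved in different directions: NOTCH1 and NOTCH3 were both higher in shNR0B1 cells and both lower in shNRF2 cells, and moved apart in shSNW1 cells. Of the 8 genes that passed the minimum level (HEY1 did not), 4 were called higher and 2 lower in shSNW1 cells, where 67.2% of all 11938 genes tested were called. In shNR0B1 cells 7 were called higher and 0 lower, against 69.8% of all genes called, and in shNRF2 cells 4 were called higher and 2 lower, against 79.8%. With backgrounds this high, the counts alone do not set the 8 genes apart. Their median change was 0.21 in shSNW1, 0.32 in shNR0B1 and 0.13 in shNRF2 cells, beside medians of -0.03, -0.02 and 0.01 over all genes tested. The 3 comparisons share the same shGFP libraries. In bulk RNA, fewer cells that express a gene and less RNA of it per cell cannot be told apart.

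**Figure D1:**
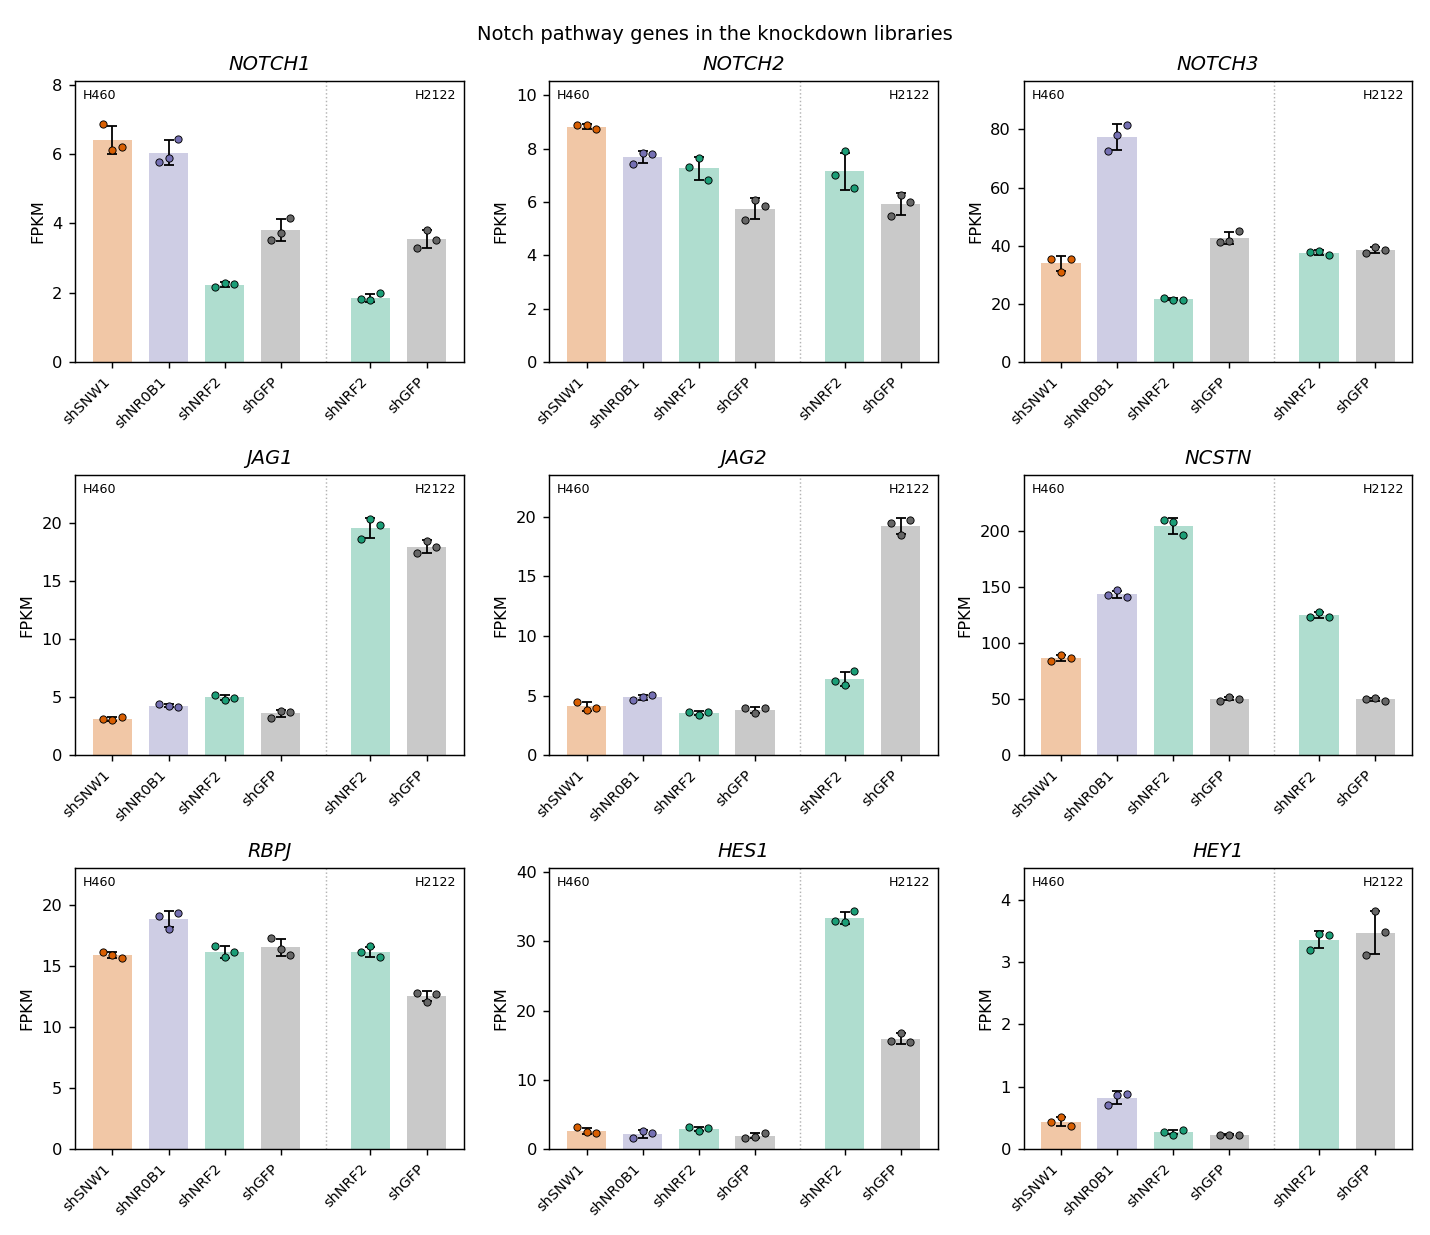
Level of each gene in the knockdown libraries in FPKM (points, libraries; bars, mean; error bars, SD, n = 3), with H460 groups left of the dotted line and H2122 groups right of it. NCSTN is lowest in shGFP cells of both lines, NOTCH3 is highest in H460 shNR0B1 cells and lowest in H460 shNRF2 cells, and JAG1, JAG2, HES1 and HEY1 stand higher in H2122 than in H460 shGFP cells.

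Among the receptors, NOTCH3 was the most abundant per length and had the widest range over the H460 knockdowns. NOTCH3 had 35.3, 31.1 and 35.5 FPKM in shSNW1 libraries, 72.6, 78.2 and 81.4 FPKM in shNR0B1 libraries and 22.1, 21.3 and 21.3 FPKM in shNRF2 libraries, against 41.3, 41.5 and 45.2 FPKM in shGFP libraries. The 4 groups did not overlap, with every shNR0B1 library above and every shSNW1 and shNRF2 library below the shGFP libraries. Its log2 change was -0.32 ± 0.0558 in shSNW1 cells (limma, Benjamini-Hochberg adjusted p = 0.000185), 0.84 ± 0.0558 in shNR0B1 cells (1.76e-08) and -0.95 ± 0.0558 in shNRF2 cells (1.73e-09). Only 605 of 11938 genes, or 5.07%, changed as much or more than NOTCH3 in shNR0B1 cells, and 13.2% did in shNRF2 cells.

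NOTCH1, a receptor that is mutated in several cancers, was higher after knockdown of SNW1 or NR0B1 and lower after knockdown of NRF2. It had 6.87, 6.12 and 6.21 FPKM in shSNW1 libraries, 5.78, 5.88 and 6.45 FPKM in shNR0B1 libraries and 2.15, 2.28 and 2.26 FPKM in shNRF2 libraries, against 3.53, 3.71 and 4.15 FPKM in shGFP libraries. The shSNW1 and shNR0B1 libraries overlapped each other and all lay above the shGFP libraries, and the shNRF2 libraries all lay below them. The log2 changes were 0.63 ± 0.0603 in shSNW1 (limma, Benjamini-Hochberg adjusted p = 7.73e-07), 0.55 ± 0.0603 in shNR0B1 (2.31e-06) and -0.57 ± 0.0603 in shNRF2 cells (9.17e-07). NOTCH2 was higher in all 3 knockdowns, at 8.83 ± 0.0897 FPKM in shSNW1, 7.69 ± 0.222 FPKM in shNR0B1 and 7.26 ± 0.426 FPKM in shNRF2 cells, against 5.75 ± 0.387 FPKM in shGFP cells. Its log2 changes were 0.54 ± 0.051, 0.37 ± 0.051 and 0.29 ± 0.051 in that order (limma, Benjamini-Hochberg adjusted p = 5.84e-07, 2.3e-05 and 0.000119). NOTCH2 shares near-identical sequence with the NOTCH2NL genes, so reads of the pair may be split between them and the NOTCH2 values are uncertain to that extent.

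The ligands stood near the level of NOTCH1 in H460 shGFP cells, and both were higher in shNR0B1 cells. JAG1, a ligand of all these receptors, had 3.10, 3.03 and 3.28 FPKM in shSNW1 libraries, 4.41, 4.25 and 4.18 FPKM in shNR0B1 libraries and 5.24, 4.80 and 4.93 FPKM in shNRF2 libraries, against 3.25, 3.86 and 3.73 FPKM in shGFP libraries. The shNRF2 and shNR0B1 libraries all lay above the shGFP libraries, and the shSNW1 libraries overlapped them. The log2 change was 0.38 ± 0.0565 in shNRF2 cells (limma, Benjamini-Hochberg adjusted p = 2.92e-05), 0.20 ± 0.0565 in shNR0B1 cells (0.00694) and -0.16 ± 0.0565 in shSNW1 cells (0.0252). The call of JAG1 in shSNW1 cells was lost when libraries were rescaled to a common total (-0.08, adjusted p = 0.233), on recovered reads (-0.12, adjusted p = 0.144) and without shGFP replicate 2 or 3 or shSNW1 replicate 1 or 2 (-0.15 to -0.12, adjusted p = 0.0629 to 0.107). JAG2, the other Jagged ligand, had 4.67, 4.88 and 5.07 FPKM in shNR0B1 libraries, against 3.97, 3.54 and 3.98 FPKM in shGFP libraries, a log2 change of 0.28 ± 0.0592 with no overlap (limma, Benjamini-Hochberg adjusted p = 0.000789). In shSNW1 cells it averaged 4.10 ± 0.34 FPKM and in shNRF2 cells 3.57 ± 0.157 FPKM, with log2 differences from shGFP of 0.08 (95% confidence interval -0.05 to 0.20) and -0.08 (-0.21 to 0.05) that were not called. The first was called on recovered reads (0.18, adjusted p = 0.0219) and after rescaling (0.15, adjusted p = 0.033).

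NCSTN, the gamma-secretase subunit, had the largest change of the 8 genes tested in each H460 knockdown. Its level was 83.6, 89.0 and 87.0 FPKM in shSNW1 libraries, 143, 147 and 141 FPKM in shNR0B1 libraries and 209, 208 and 196 FPKM in shNRF2 libraries, against 48.8, 51.7 and 50.4 FPKM in shGFP libraries. None of the 4 groups overlapped, and their order was shNRF2, shNR0B1, shSNW1 and shGFP from high to low. The log2 change was 0.77 ± 0.0358 in shSNW1 (limma, Benjamini-Hochberg adjusted p = 7.39e-10), 1.49 ± 0.0358 in shNR0B1 (1.62e-12) and 2.00 ± 0.0358 in shNRF2 cells (4.2e-14). As many as 698 genes (5.85% of those tested) changed by as much or more in shSNW1 cells, but only 46 (0.385%) did in shNR0B1 cells and 84 (0.704%) in shNRF2 cells.

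RBPJ, the DNA-binding factor of the pathway, varied little. It averaged 15.9 ± 0.243 FPKM in shSNW1, 18.8 ± 0.667 FPKM in shNR0B1 and 16.1 ± 0.486 FPKM in shNRF2 cells, against 16.5 ± 0.702 FPKM in shGFP cells. The shNR0B1 libraries all lay above the shGFP libraries, with a log2 change of 0.18 ± 0.0407 (limma, Benjamini-Hochberg adjusted p = 0.00151). After SNW1 knockdown the log2 difference was -0.05 (95% confidence interval -0.14 to 0.03) and after NRF2 knockdown -0.03 (-0.12 to 0.06), neither called, and both took the other sign after rescaling (0.04 and 0.06).

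HES1, the basic helix-loop-helix repressor that is the textbook Notch target, was low in H460, with 45 to 92 recovered reads per library. It had 3.13, 2.43 and 2.32 FPKM in shSNW1 libraries, 1.55, 2.55 and 2.32 FPKM in shNR0B1 libraries and 3.21, 2.61 and 2.97 FPKM in shNRF2 libraries, against 1.60, 1.72 and 2.27 FPKM in shGFP libraries. The shSNW1 and shNRF2 libraries all lay above the shGFP libraries, in shSNW1 by a narrow margin, and the shNR0B1 libraries overlapped them. The log2 change was 0.46 ± 0.126 in shNRF2 cells (limma, Benjamini-Hochberg adjusted p = 0.00393) and 0.34 ± 0.126 in shSNW1 cells (0.0274), and the difference in shNR0B1 cells was 0.13 (95% confidence interval -0.14 to 0.40), not called. The shSNW1 call was lost with no filter on low genes (adjusted p = 0.0644) and without shGFP replicate 1 or 2 or shSNW1 replicate 1 (0.25 to 0.31, adjusted p = 0.0799 to 0.123), and the shNR0B1 difference was called without shNR0B1 replicate 1 (0.27, adjusted p = 0.04997).

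HEY1, a related repressor and Notch target, lay under the minimum level of 1 FPKM in every H460 library. It had 0.431, 0.507 and 0.368 FPKM in shSNW1 libraries, 0.697, 0.868 and 0.887 FPKM in shNR0B1 libraries and 0.275, 0.229 and 0.301 FPKM in shNRF2 libraries, against 0.217, 0.230 and 0.227 FPKM in shGFP libraries, on 9 to 47 reads each. All shNR0B1 and shSNW1 libraries lay above the shGFP libraries, and the shNRF2 libraries overlapped them. On recovered reads (limma voom, Benjamini-Hochberg adjusted p) the log2 change was 1.90 ± 0.271 in shNR0B1 cells (5.15e-08), 1.00 ± 0.3 in shSNW1 cells (0.00326) and 0.21 ± 0.334 in shNRF2 cells (0.562, not called). The 5 genes whose log2(FPKM + 1) followed HES1 most closely over the 12 H460 knockdown libraries, among 8197 genes averaging at least 5 FPKM, were TRMT2A, APBA2, LRCH4, MOSPD3 and ZFPL1, with Pearson r of 0.869 to 0.881. These 12 points share their groups and the counting error of HES1, so the values are a description.

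**Figure D2:**
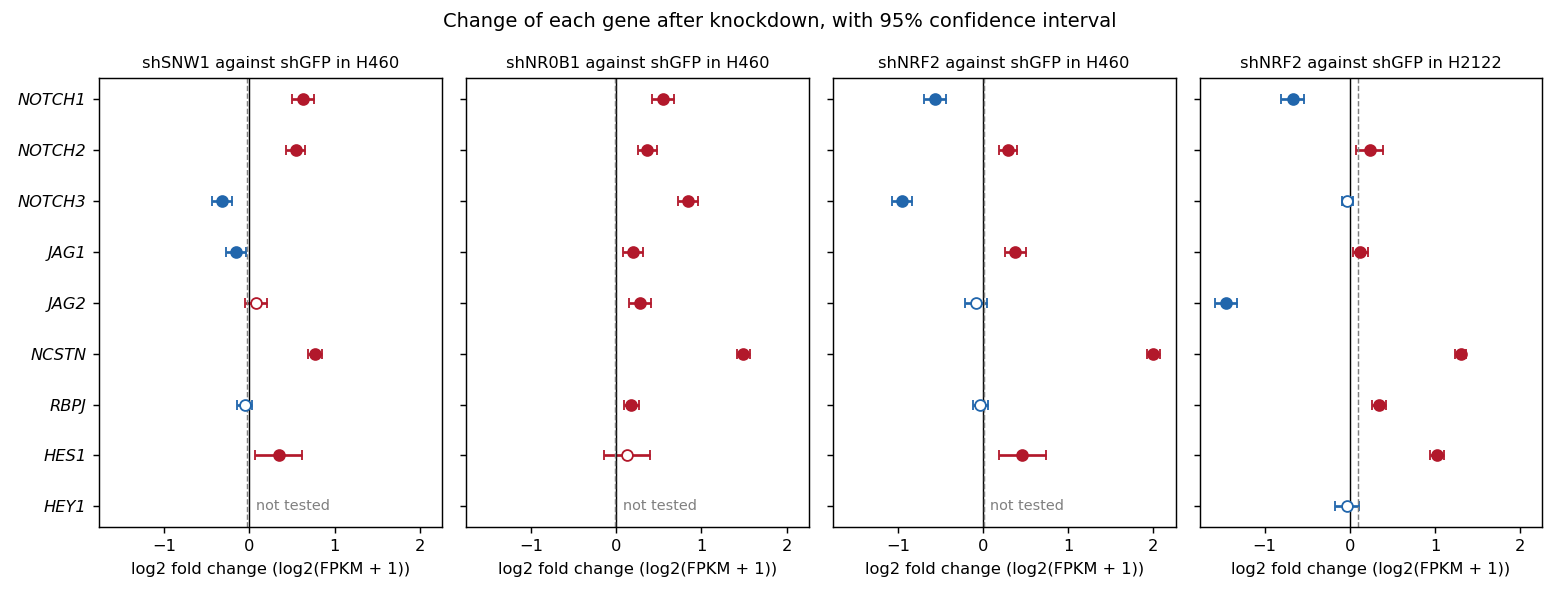
Log2 change of each gene after knockdown against shGFP (x axis, difference of log2(FPKM + 1); bars, 95% confidence interval; filled points, called by limma; open points, not called; dashed line, median of all genes tested). NCSTN lies farthest to the right in each H460 panel, from 0.77 in shSNW1 to 2.00 in shNRF2 cells, and JAG2 lies farthest to the left in H2122 at -1.45.

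The knockdowns were also compared with each other in the same fit. Between shSNW1 and shNR0B1 cells 1 of the 8 genes was higher and 5 were lower in shSNW1 cells, where 67.8% of all genes were called. NOTCH3 differed most, at 34.0 ± 2.53 FPKM in shSNW1 and 77.4 ± 4.41 FPKM in shNR0B1 cells (log2 difference -1.17 ± 0.0558, limma, Benjamini-Hochberg adjusted p = 9.83e-10), a difference that 190 of 11938 genes (1.59%) matched or passed. NCSTN (-0.72), JAG1 (-0.35), RBPJ (-0.23) and JAG2 (-0.21) were also lower in shSNW1 cells, and NOTCH2 (0.18) was higher. NOTCH1 differed by 0.07 (95% confidence interval -0.06 to 0.20) and HES1 by 0.22 (-0.06 to 0.49), neither called.

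Between shSNW1 and shNRF2 cells, 4 genes were higher and 2 lower in shSNW1 cells, against 78.7% of all genes called. NOTCH1 (1.19 ± 0.0603) and NOTCH3 (0.63 ± 0.0558) were higher and NCSTN (-1.23 ± 0.0358) and JAG1 (-0.53 ± 0.0565) lower in shSNW1 than in shNRF2 cells (limma, Benjamini-Hochberg adjusted p of at most 9.71e-07 for each of the 4). Between shNR0B1 and shNRF2 cells, 4 were higher and 3 lower in shNR0B1 cells, against 74.5% of all genes called, with NOTCH3 at 1.79 ± 0.0558, a size that 115 of 11938 genes reached, and NOTCH1 at 1.12 ± 0.0603 (adjusted p = 4.34e-12 and 9.28e-10). HES1 was -0.12 (95% confidence interval -0.39 to 0.15) in shSNW1 against shNRF2 cells, not called, and -0.34 ± 0.126 in shNR0B1 against shNRF2 cells (limma, Benjamini-Hochberg adjusted p = 0.0267). That last call was lost without shNR0B1 replicate 1 or shNRF2 replicate 1 or 3 (-0.33 to -0.19, adjusted p = 0.0614 to 0.144), with no filter (0.0599) and on recovered reads (0.0682). JAG2, called higher in shSNW1 than in shNRF2 cells (0.16, adjusted p = 0.0255), lost its call without shNRF2 replicate 2 (0.0942) or shSNW1 replicate 1 (0.13). Between shNR0B1 and shNRF2 cells, JAG1 (-0.18, adjusted p = 0.0104) lost its call on recovered reads (-0.10, 0.151). NOTCH2 (0.07, not called) was called on recovered reads (0.20, 0.000195).

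Marker lists of several cell types moved with the groups. The neuroendocrine marker list summed to 36.6 to 38.9 FPKM in shSNW1 libraries, 25.95 to 29.3 FPKM in shNR0B1 libraries and 10.7 to 11.7 FPKM in shNRF2 libraries, against 4.88 to 5.41 FPKM in shGFP libraries. CHGA, the secretory granule protein chromogranin A, made up most of it, at 36.8, 26.5, 9.82 and 4.20 FPKM in the same order of groups, and INSM1 averaged at most 0.0494 FPKM. SYP did not follow the sum, at 0.639 FPKM in shSNW1, 0.58 FPKM in shNR0B1 and 1.37 FPKM in shNRF2 cells, against 0.901 FPKM in shGFP cells. Fibroblast markers summed to 14.5 to 16.5 FPKM in shSNW1, 22.2 to 23.7 FPKM in shNR0B1 and 35.7 to 38.1 FPKM in shNRF2 libraries, against 15.5 to 16.3 FPKM in shGFP libraries of H460. DCN averaged 10.3 FPKM in shNRF2 and 0.8 FPKM in shGFP cells. LUM averaged 22.7 FPKM in shNRF2 and 8.46 FPKM in shGFP cells. COL1A1 was at 0.409 FPKM in shNRF2, 2.67 FPKM in shNR0B1 and 0.489 FPKM in shGFP cells. COL3A1 was at 3.46 FPKM in shNRF2, 12.2 FPKM in shNR0B1 and 6.18 FPKM in shGFP cells. In H2122 the fibroblast sum was 14.4 to 14.95 FPKM in shNRF2 libraries, against 10.2 to 11.2 FPKM in shGFP libraries, nearly all of it COL1A1. Epithelial markers summed to 1884 to 1943 FPKM in shSNW1, 1198 to 1223 FPKM in shNR0B1 and 2058 to 2170 FPKM in shNRF2 libraries, against 1972 to 2249 FPKM in shGFP libraries of H460. In H2122 they summed to 3884 to 4012 FPKM in shNRF2 libraries, against 2566 to 2580 FPKM in shGFP libraries. Most of that rise was KRT19, at 1940 FPKM in shNRF2 and 781 FPKM in shGFP cells of H2122. KRT8 had 789 and 599 FPKM and CDH1 132 and 75.7 FPKM in that order. KRT18 had 785 and 782 FPKM, and EPCAM was lower in shNRF2 cells, at 290 and 333 FPKM. KRT18 averaged 367 FPKM in shSNW1, 295 FPKM in shNR0B1 and 284 FPKM in shNRF2 cells, against 608 FPKM in shGFP cells of H460. KRT19 averaged 1120 FPKM in shSNW1, 513 FPKM in shNR0B1 and 1360 FPKM in shNRF2 cells, against 940 FPKM in shGFP cells of H460. KRT8 averaged 419, 401 and 461 FPKM in the same order, against 532 FPKM in shGFP cells. CD14, an immune marker of monocytes, averaged 2.61 FPKM in shSNW1, 10.7 FPKM in shNR0B1 and 7.95 FPKM in shNRF2 cells, against 5.38 FPKM in shGFP cells of H460, and 0.693 FPKM in shNRF2 cells, against 0.594 FPKM in shGFP cells of H2122. Their part in the Notch gene changes was not tested.

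In H2122, sampled after 24 h of NRF2 knockdown, HES1, NCSTN, RBPJ, NOTCH2 and JAG1 were higher and JAG2 and NOTCH1 lower. All 9 genes passed the minimum level there, and 5 were called higher and 2 lower, where 87.3% of all 11710 genes tested were called. Their median change was 0.12, beside 0.09 over all genes.

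JAG2 fell most. It had 6.21, 5.93 and 7.06 FPKM in shNRF2 libraries, against 19.5, 18.4 and 19.8 FPKM in shGFP libraries, with no overlap and a log2 change of -1.45 ± 0.0574 (limma, Benjamini-Hochberg adjusted p = 8.08e-09). Of all genes tested, 788 (6.73%) changed by as much or more. JAG1 had 18.7, 20.3 and 19.9 FPKM in shNRF2 libraries, against 17.4, 18.5 and 17.98 FPKM in shGFP libraries, which do not overlap by a small margin. Its log2 change of 0.12 ± 0.0391 (limma, Benjamini-Hochberg adjusted p = 0.0158) was not called without shGFP replicate 1 or shNRF2 replicate 2 (adjusted p = 0.0562 to 0.06).

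NOTCH1 had 1.80, 1.78 and 1.98 FPKM in H2122 shNRF2 libraries, against 3.30, 3.82 and 3.51 FPKM in shGFP libraries, and fell by 0.67 ± 0.0607 on the log2 scale (limma, Benjamini-Hochberg adjusted p = 3.51e-06). NOTCH2 averaged 7.15 ± 0.706 FPKM in shNRF2 and 5.91 ± 0.406 FPKM in shGFP cells, a log2 change of 0.23 ± 0.0692 (limma, Benjamini-Hochberg adjusted p = 0.00986), with no library of either group inside the range of the other. NOTCH3 had 37.7, 38.3 and 36.9 FPKM in shNRF2 libraries, against 37.4, 39.4 and 38.7 FPKM in shGFP libraries, and the groups overlapped. The log2 difference of NOTCH3 was -0.03 (95% confidence interval -0.10 to 0.03), not called, and 0.11 after rescaling to a common total (adjusted p = 0.00514), a setting that moved the median of all genes by 0.13.

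NCSTN had 123, 128 and 123 FPKM in H2122 shNRF2 libraries, against 50.3, 51.3 and 48.4 FPKM in shGFP libraries, a log2 change of 1.30 ± 0.0278 with no overlap (limma, Benjamini-Hochberg adjusted p = 1.67e-10). HES1 had 33.0, 32.8 and 34.4 FPKM in shNRF2 libraries, against 15.5, 16.8 and 15.4 FPKM in shGFP libraries, on 502 to 1116 reads per library. Every shNRF2 library lay above every shGFP library, and the log2 change was 1.02 ± 0.038 (limma, Benjamini-Hochberg adjusted p = 5.19e-09). RBPJ averaged 16.1 ± 0.431 FPKM in shNRF2 and 12.5 ± 0.427 FPKM in shGFP cells (log2 change 0.34 ± 0.037, limma, Benjamini-Hochberg adjusted p = 1.27e-05). HEY1 had 3.36 ± 0.14 FPKM in shNRF2 and 3.47 ± 0.347 FPKM in shGFP cells, a log2 difference of -0.03 (95% confidence interval -0.18 to 0.11) that was not called and was 0.08 after rescaling.

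The NRF2 knockdown was then compared between the lines with an interaction term, the change in H2122 minus the change in H460, in which 71.6% of 12798 genes were called. Of the 9 genes, 3 were called higher and 3 lower, and the time of knockdown, 24 h in H2122 and 72 h in H460, differs together with the line and cannot be told apart from it. JAG2 differed most (-1.37 ± 0.0846, limma, Benjamini-Hochberg adjusted p = 1.3e-08), with its fall called in H2122 and not in H460. NOTCH3 differed by 0.92 ± 0.0532 (adjusted p = 7.08e-09), with its fall called in H460 and not in H2122. NCSTN rose in both lines and by less in H2122 (-0.70 ± 0.0482, adjusted p = 3.78e-08), and HES1 rose in both and by more in H2122 on this scale (0.56 ± 0.111, adjusted p = 0.00056). RBPJ (0.37 ± 0.0573, adjusted p = 6.52e-05) and JAG1 (-0.26 ± 0.0765, adjusted p = 0.00898) also differed, while NOTCH1 (-0.10, 95% confidence interval -0.28 to 0.08), NOTCH2 (-0.06, -0.27 to 0.16) and HEY1 (-0.08, -0.26 to 0.09) were not called.

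The shGFP cells of the lines differed in which Notch genes were high, as a description across lines sampled at different times. H2122 shGFP cells had 17.97 ± 0.549 FPKM of JAG1, 19.2 ± 0.703 FPKM of JAG2, 15.9 ± 0.758 FPKM of HES1 and 3.47 ± 0.347 FPKM of HEY1, against 3.62 ± 0.322, 3.83 ± 0.251, 1.86 ± 0.36 and 0.225 ± 0.00722 FPKM of the same genes in H460 shGFP cells. The libraries of the lines do not overlap for any of these 4 genes. NOTCH3 stood at 38.5 ± 1.02 FPKM in H2122 and 42.6 ± 2.19 FPKM in H460 shGFP cells. RBPJ stood at 12.5 ± 0.427 FPKM in H2122 and 16.5 ± 0.702 FPKM in H460 shGFP cells. Both were higher in H460, also with no overlap. NCSTN stood at 49.99 ± 1.46 FPKM in H2122 and 50.3 ± 1.41 FPKM in H460 shGFP cells. Its libraries overlap between the lines, as do those of NOTCH1 and NOTCH2. The share of all genes without overlap between the lines was not counted. In H460 shGFP cells the order of levels was NCSTN, NOTCH3, RBPJ, NOTCH2, then JAG2, NOTCH1 and JAG1, whose libraries overlap, then HES1 and HEY1. In H2122 shGFP cells it was NCSTN, NOTCH3, then JAG2 and JAG1, whose libraries overlap, then HES1, RBPJ, NOTCH2, then NOTCH1 and HEY1, whose libraries overlap.

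Among the compounds, JAG1, NOTCH3, JAG2 and, by a small amount, NCSTN were lower with BPK29 than with DMSO, and none of the 8 genes tested passed the threshold with BPK9. BPK29 and BPK9 are known here by code name only and were given at the same dose and time. Compound values are ratios to the mean of the DMSO libraries, because the gene lengths behind the compound columns differ from those behind the knockdown columns by over 2-fold for 54.0% of 15204 genes and no FPKM level can be set across them. For BPK29 against DMSO, 0 of 8 genes were called higher and 4 lower, where 50.4% of all 11461 genes tested were called, and HEY1 was again under the minimum. The split varied with the setting. JAG1 and NOTCH3 kept their calls in every alternative, and JAG2 and NCSTN did not. RBPJ was called higher with BPK29 after rescaling (0.15, adjusted p = 0.00958), on recovered reads (0.15, adjusted p = 0.00049) and without DMSO replicate 3 (0.12, adjusted p = 0.0335), against 0.08 and 0.11 as fitted. Rescaling and recovered reads both set libraries by their totals, and moved the median of all genes by 0.063 and 0.062 here. For BPK9 against DMSO, 0 were called, where 0.00873% of all genes, 1 gene in all, were called by limma. At an unadjusted p under 0.05, 1 of the 8 passed for BPK9, and limma voom on recovered reads called 1 as well, NOTCH3 in both cases. Limma voom called 245 of all 13151 genes for BPK9, and the share of all genes at the unadjusted threshold was not counted.

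JAG1 had ratios of 0.599, 0.507 and 0.609 in BPK29 libraries and 0.912, 0.959 and 0.996 in BPK9 libraries, against 0.994, 1.05 and 0.955 in DMSO libraries. All BPK29 libraries lay below all others, and BPK9 and DMSO libraries overlapped. The log2 change with BPK29 was -0.66 ± 0.0602 (limma, Benjamini-Hochberg adjusted p = 2.03e-05), a size that 196 of 11461 genes (1.71%) matched or passed, and the difference between BPK29 and BPK9 was -0.61 ± 0.0602 (4.61e-05). NOTCH3 had ratios of 0.910, 0.831 and 0.893 in BPK29 libraries and 1.12, 1.11 and 1.10 in BPK9 libraries, against 1.00, 0.953 and 1.04 in DMSO libraries. The 3 groups did not overlap, with BPK29 below and BPK9 above DMSO. The log2 change of NOTCH3 was -0.18 ± 0.0406 with BPK29 (limma, Benjamini-Hochberg adjusted p = 0.00408), the difference from DMSO with BPK9 was 0.15 ± 0.0406 (0.184, not called; 0.17 and 0.00194 on recovered reads), and BPK29 and BPK9 differed by -0.33 ± 0.0406 (0.000156).

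JAG2 averaged a ratio of 0.849 ± 0.0556 with BPK29 and 0.999 ± 0.0885 with BPK9, against 1.00 ± 0.0235 with DMSO, and its log2 change with BPK29 was -0.20 ± 0.0604 (limma, Benjamini-Hochberg adjusted p = 0.0192). That call was lost after rescaling (-0.14, adjusted p = 0.0763) and without DMSO replicate 3 or BPK29 replicate 2 (adjusted p = 0.0554 to 0.0721). NCSTN averaged 0.961 ± 0.0105 with BPK29 and 1.01 ± 0.00745 with BPK9, against 1.00 ± 0.0129 with DMSO. Its change with BPK29, -0.06 ± 0.0199 (limma, Benjamini-Hochberg adjusted p = 0.0353), took the other sign after rescaling (0.01) and on recovered reads (0.0049), neither called, and lost its call without DMSO replicate 1 or 3 or BPK29 replicate 1 or 2.

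BPK29 and BPK9 differed in 4 of the 8 genes, all lower with BPK29, where 46.9% of all genes were called: JAG1, NOTCH3, JAG2 (-0.20 ± 0.0604, limma, Benjamini-Hochberg adjusted p = 0.0228) and NCSTN (-0.08 ± 0.0199, 0.0104). JAG2 lost that call after rescaling (-0.15), with no filter on low genes and without BPK29 replicate 2 or BPK9 replicate 1 or 2, and NCSTN lost it after rescaling (-0.02) and on recovered reads (-0.03). No difference was called between BPK29 and BPK9 for NOTCH1 (-0.02, 95% confidence interval -0.12 to 0.08), NOTCH2 (-0.03, -0.10 to 0.05) or RBPJ (0.07, -0.02 to 0.16). RBPJ was called higher with BPK29 than with BPK9 after rescaling (0.13, adjusted p = 0.0226) and on recovered reads (0.13, adjusted p = 0.0035). Both settings moved the median of all genes, by 0.051 and 0.047 in that order. HES1 had ratios of 1.13, 1.14 and 1.13 in BPK29 libraries and 0.910, 1.06 and 0.861 in BPK9 libraries, against 1.07, 0.954 and 0.980 in DMSO libraries, so that BPK29 lay above the other groups. Its log2 difference between BPK29 and BPK9 was 0.15 ± 0.0586 (limma, Benjamini-Hochberg adjusted p = 0.0574), not called, and was called with no filter on low genes (0.0442), after rescaling (0.0265), on recovered reads (0.0247) and without BPK9 replicate 2 (0.0233).

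**Figure D3:**
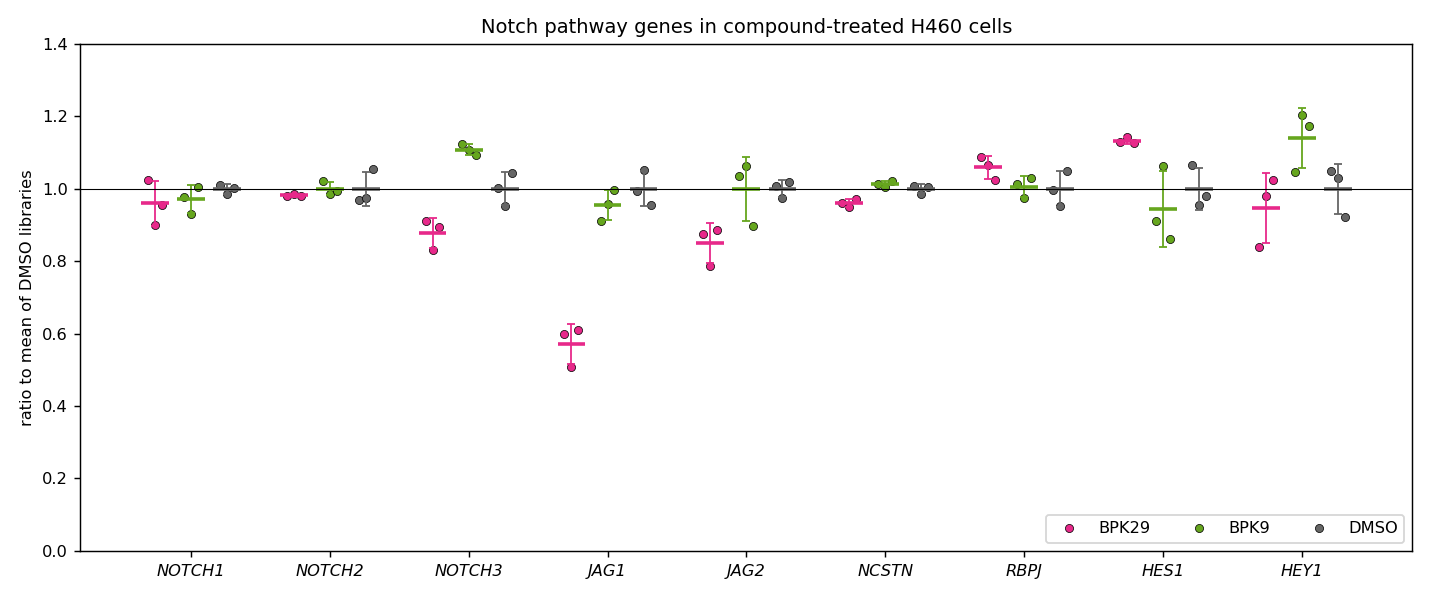
Ratio of each gene to the mean of the DMSO libraries in H460 cells treated for 12 h (points, libraries; horizontal bars, mean; error bars, SD, n = 3). JAG1 stands lowest, at a mean ratio of 0.572 with BPK29, and NOTCH3 is the gene whose 3 groups do not overlap.

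The other 63 genes of the pathway were counted by role. Of 49 that passed the minimum level in H460, 25 were called higher and 14 lower in shSNW1 cells (SNW1 itself among the 14), 24 higher and 6 lower in shNR0B1 cells, and 30 higher and 8 lower in shNRF2 cells, where 67.2%, 69.8% and 79.8% of all genes were called in that order. Of 50 tested in H2122, 38 were called higher and 8 lower in shNRF2 cells, against 87.3% of all genes called. Their median change was 0.10, 0.16, 0.17 and 0.54 in that order, beside -0.03, -0.02, 0.01 and 0.09 over all genes. BPK29 had 13 higher and 9 lower of 50, against 50.4% of all genes called, with a median of 0.00 beside -0.02 over all genes. BPK9 had 0 of 50 called by limma, where 1 of all 11461 genes was called. Limma voom on recovered reads called 2 of 49 for BPK9, where it called 245 of all 13151 genes. At an unadjusted p under 0.05, 6 of the 50 passed for BPK9. The share of all genes at that threshold was not counted, so the 6 cannot be set against it.

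The other gamma-secretase subunits and the proteases that process Notch receptors were 8 genes, all tested: 6 were called higher and 2 lower after NRF2 knockdown in each line, 3 higher and 4 lower in shSNW1, and 2 higher and 2 lower in shNR0B1 cells. Of all genes, 79.8% were called after NRF2 knockdown in H460, 87.3% in H2122, 67.2% in shSNW1 and 69.8% in shNR0B1 cells. FURIN, which makes the first cut of the receptor in the Golgi, was higher in all knockdowns, at 42.0 ± 1.39 FPKM in shSNW1, 57.4 ± 1.46 FPKM in shNR0B1 and 274 ± 11.5 FPKM in shNRF2 cells, against 23.5 ± 2.36 FPKM in shGFP cells of H460, and at 96.0 ± 1.99 FPKM in shNRF2 cells, against 46.1 ± 1.41 FPKM in shGFP cells of H2122. ADAM10, which cuts the ligand-bound receptor, rose to 49.6 ± 1.42 FPKM in H460 shNRF2 cells, against 17.3 ± 0.692 FPKM in shGFP cells (log2 change 1.46, limma, Benjamini-Hochberg adjusted p = 6.18e-13). ADAM10 averaged 24.8 FPKM in shSNW1 and 22.8 FPKM in shNR0B1 cells, and in H2122 67.4 FPKM in shNRF2 and 33.2 FPKM in shGFP cells. Its relative ADAM17 fell to 35.0 ± 0.579 FPKM in shNRF2 cells, against 45.8 ± 0.544 FPKM in shGFP cells of H460, and to 23.2 ± 1.06 FPKM in shNRF2 cells, against 38.6 ± 0.938 FPKM in shGFP cells of H2122. ADAM17 averaged 38.0 FPKM in shSNW1 and 46.4 FPKM in shNR0B1 cells.

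Of the 16 genes of the nuclear complex, 9 were called higher and 4 lower in shSNW1 cells (SNW1 among the 4), 12 higher in shNR0B1 cells with the other 4 not called, and 12 higher and 3 lower in shNRF2 cells of H460, and 13 higher and 2 lower in shNRF2 cells of H2122, beside the same shares of all genes. CIR1, a corepressor that binds RBPJ, was higher in all of these, at 16.1 ± 0.965 FPKM in shSNW1 and 14.5 ± 0.609 FPKM in shNR0B1 cells, against 8.20 ± 0.563 FPKM in shGFP cells of H460, and at 29.0 ± 0.0137 FPKM in shNRF2 cells, against 10.5 ± 0.969 FPKM in shGFP cells of H2122. The histone acetyltransferase KAT2B fell to 2.19 ± 0.126 FPKM in shSNW1 cells, against 3.73 ± 0.224 FPKM in shGFP cells. In H2122, the Mastermind coactivator MAML2 rose to 4.68 ± 0.343 FPKM in shNRF2 cells, against 1.54 ± 0.117 FPKM in shGFP cells, and the acetyltransferase KAT2A fell to 22.1 ± 0.397 FPKM in shNRF2 cells, against 36.4 ± 0.88 FPKM in shGFP cells. Each of these 3 was also called the other way. As log2 changes, KAT2B was higher in shNR0B1 (0.23) and H2122 shNRF2 cells (0.38). MAML2 was lower in shSNW1 cells (-0.41). KAT2A was higher in shSNW1 (0.20), shNR0B1 (0.16) and H460 shNRF2 cells (0.27).

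Of the target repressors and Groucho partners, 8 were tested in H460 and 7 in H2122. In H460, 3 were called higher and 2 lower in shSNW1 cells, and 2 higher and 1 lower in shNR0B1 cells. After NRF2 knockdown 2 were called higher and 2 lower in H460, and 4 higher and 1 lower in H2122. The shares of all genes called were 67.2%, 69.8%, 79.8% and 87.3% in that order. Among these genes, NRARP, a Notch target that limits the Notch signal, fell after NRF2 knockdown in both lines, to 1.35 ± 0.159 FPKM in shNRF2 cells, against 3.23 ± 0.278 FPKM in shGFP cells of H460. In H2122 it fell to 0.553 ± 0.0783 FPKM in shNRF2 cells, against 2.59 ± 0.23 FPKM in shGFP cells. HES1 rose and NRARP fell in the same shNRF2 libraries of both lines. HES7 fell to 2.49 ± 0.472 FPKM in H460 shNRF2 cells, against 6.96 ± 0.858 FPKM in shGFP cells, and the Groucho corepressor TLE1 rose to 5.55 ± 0.293 FPKM in shNRF2 cells, against 1.14 ± 0.16 FPKM in shGFP cells. In H2122 TLE1 averaged 6.03 FPKM in shNRF2 and 6.24 FPKM in shGFP cells. TLE2 fell to 0.789 ± 0.0861 FPKM in shSNW1 cells, against 2.30 ± 0.422 FPKM in shGFP cells. After NRF2 knockdown TLE2 was called higher, at 5.03 FPKM in shNRF2 and 2.30 FPKM in shGFP cells of H460. In H2122 it was also called higher, at 2.55 FPKM in shNRF2 and 0.718 FPKM in shGFP cells. In shNR0B1 cells TLE3 rose to 16.8 ± 0.975 FPKM, against 9.83 ± 0.772 FPKM in shGFP cells, and TLE4 fell to 1.67 ± 0.142 FPKM in shNR0B1 cells, against 3.66 ± 0.257 FPKM in shGFP cells. TLE3 averaged 12.4 FPKM in shSNW1 and 10.5 FPKM in shNRF2 cells of H460. In H2122 TLE3 averaged 19.9 FPKM in shNRF2 and 12.1 FPKM in shGFP cells. TLE4 was called higher in H2122 shNRF2 cells (log2 change 0.70), HES7 higher in shSNW1 cells (0.56) and NRARP higher in shNR0B1 cells (0.25).

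Genes that modify or remove the receptor were counted beside the same shares of all genes. Of 12 turnover and trafficking genes, 8 were called higher and 3 lower in shSNW1 cells, and 6 higher and 2 lower in shNR0B1 cells. After NRF2 knockdown 8 were called higher and 0 lower in H460, and 10 higher and 1 lower in H2122. Of 3 glycosyltransferases tested in H460, 1 was called higher and 1 lower in shSNW1 and in shNR0B1 cells, and 2 higher in shNRF2 cells. Of 5 tested in H2122, 3 were called higher and 2 lower. LFNG, the Fringe enzyme that adds a sugar to Notch and shifts its choice of ligand, rose to 27.6 ± 0.515 FPKM in H2122 shNRF2 cells, against 5.67 ± 0.225 FPKM in shGFP cells (log2 change 2.10, limma, Benjamini-Hochberg adjusted p = 6.43e-11). POFUT1, which adds fucose to Notch, fell to 11.7 ± 0.212 FPKM in shNRF2 cells, against 17.9 ± 0.383 FPKM in shGFP cells of H2122. In H460 POFUT1 was called higher instead, at 25.0 FPKM in shSNW1, 36.5 FPKM in shNR0B1 and 43.8 FPKM in shNRF2 cells, against 22.3 FPKM in shGFP cells. POGLUT1, which adds glucose to Notch, fell to 4.54 ± 0.137 FPKM in shSNW1 and 4.65 ± 0.264 FPKM in shNR0B1 cells, against 7.63 ± 0.367 FPKM in shGFP cells of H460, and was called higher in shNRF2 cells (9.15 FPKM). NUMBL, a relative of the Notch inhibitor NUMB, was higher in all 3 H460 knockdowns, at 9.64 ± 0.328 FPKM in shSNW1, 6.80 ± 0.458 FPKM in shNR0B1 and 10.5 ± 0.41 FPKM in shNRF2 cells, against 3.63 ± 0.185 FPKM in shGFP cells. It was called lower in H2122, at 2.63 FPKM in shNRF2 and 3.03 FPKM in shGFP cells. NOTCH2NL fell to 2.38 ± 0.279 FPKM in H460 shNRF2 cells, against 3.35 ± 0.133 FPKM in shGFP cells. It was called higher in H2122, at 5.79 FPKM in shNRF2 and 4.49 FPKM in shGFP cells. The shared sequence named above applies here too. MIB1, a ubiquitin ligase that activates ligands, had 10.9 ± 0.139 FPKM in shNR0B1 and 12.3 ± 0.739 FPKM in shGFP cells, a call lost after rescaling and on recovered reads.

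With BPK29, HES6 rose to a ratio of 1.65 ± 0.0489, NRARP to 1.49 ± 0.107, PSEN2 to 1.37 ± 0.0421 and HES7 to 1.32 ± 0.088, against 1.00 with DMSO (SD of 0.0207 to 0.0776). MAML2 fell to 0.782 ± 0.0598, DTX3 to 0.809 ± 0.0516, DLL3 to 0.796 ± 0.0493 and NOTCH4 to 0.698 ± 0.125, against 1.00 with DMSO (SD of 0.0735 to 0.157). The limma Benjamini-Hochberg adjusted p was 0.000142 to 0.000803 for the 4 that rose and 0.00375 to 0.0165 for the 4 that fell. NOTCH4 had 0.0217 to 0.0349 FPKM in the H460 knockdown groups. It passed the minimum in the compound columns, whose gene lengths differ, and not in the knockdown columns. It lost its call on recovered reads (adjusted p = 0.0968) and without DMSO replicate 1 or 2 or BPK29 replicate 2 or 3. DLL3 lost it without BPK29 replicate 3.

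**Figure D4:**
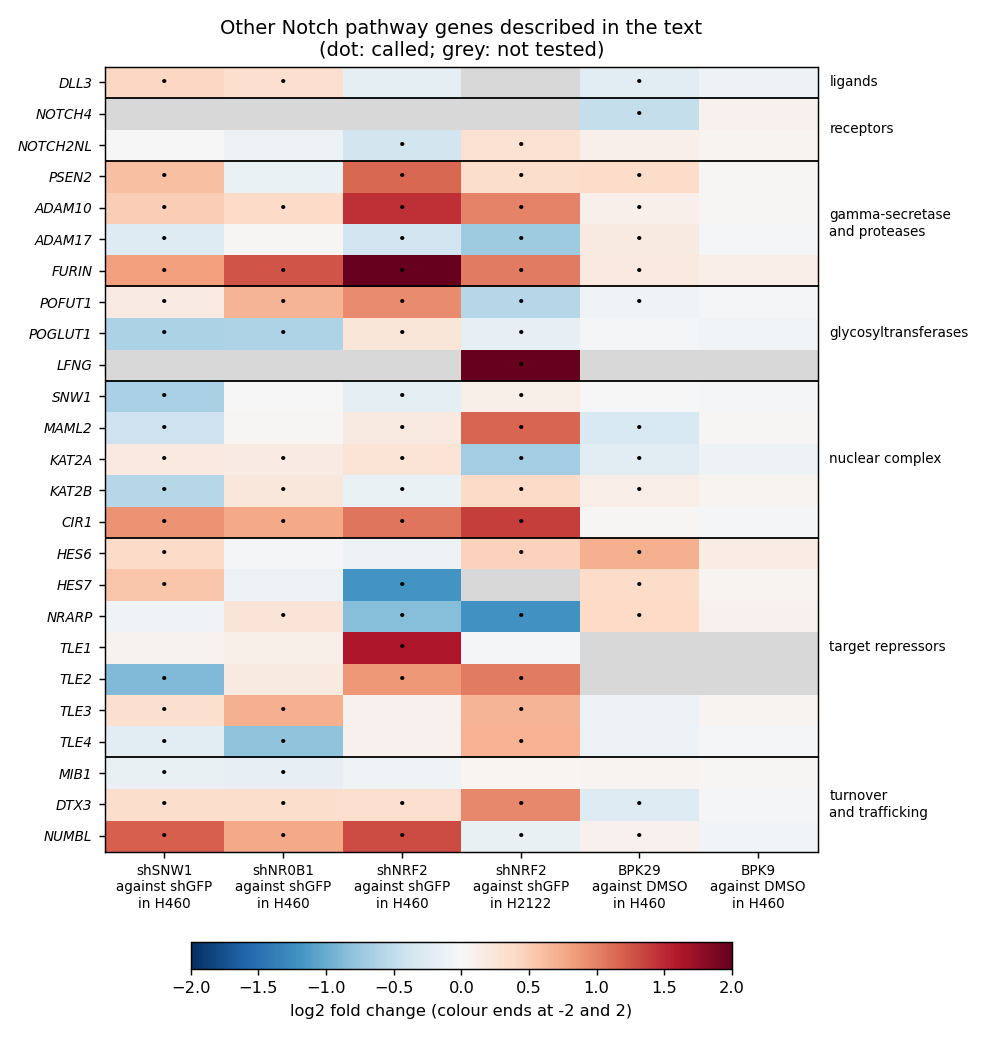
Log2 change of the other Notch pathway genes described here, chosen for the size of their change (rows, grouped by role), in 6 comparisons (columns), with red for higher and blue for lower in the knockdown or compound group, dots for genes called by limma and grey for genes under the minimum level. FURIN in H460 shNRF2 cells, at 3.49, and LFNG in H2122 shNRF2 cells, at 2.10, pass the end of the colour scale, and the BPK9 column has no dot.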

How the data were processed

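RNA was sequenced from 18 knockdown and 9 compound libraries, 3 per group. The authors deposited FPKM values for 23710 gene symbols. The tools named in the submitters' processing notes are HOMER, Bowtie2, DESeq2, featureCounts and STAR, with the build hg19. Their versions, the annotation and any use of strand were not given in the sources used here. Whole reads were recovered from the steps of the FPKM values for 100.0% of 15928 knockdown and 15479 compound genes tested (tolerance 0.02 reads). The implied length of HES1 over that of NOTCH1 was 0.157 in the knockdown and 2.00 in the compound columns, so compound values are printed as ratios only, although the minimum level, the pseudocount and the naming rule were applied to the deposited compound FPKM values.

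Tests used limma 3.58.1 (R 4.3.3) with a mean-variance trend on log2(FPKM + 1), on genes that reached 1 FPKM in 3 or more fitted libraries. Calls took a Benjamini-Hochberg adjusted p below 0.05 over all genes. The 12 H460 knockdown, 6 H2122 and 9 compound libraries were fitted separately, and the interaction used the 12 shNRF2 and shGFP libraries. The fits were tested on simulated data. Alternatives were a pseudocount of 0.1, no filter on low genes, a common FPKM total, limma voom on recovered reads (at least 10 reads in at least 3 libraries), a replicate block and leaving out each library. Voom took the total of recovered reads as the library size, with no further normalization. Other pathway genes are named by size: up to 4 called per direction and comparison, with at least 2 FPKM in the higher group. Some genes that this rule or the marker lists took are not reported here. The members and lists were chosen with earlier results of these data known. The NR0B1 peak positions (hg19) were not analysed here.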

Additional observations from a re-analysis of the deposited data

Results flagged for a closer look

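The change after NRF2 knockdown differed between H2122 and H460 for 6 of the 9 genes, by a test of the difference itself in which 71.6% of all genes were called (limma interaction, Benjamini-Hochberg adjusted p; change in H2122 minus change in H460, 3 libraries per group). The difference was 0.92 for NOTCH3 (adjusted p = 7.08e-09), 0.56 for HES1 (0.00056) and 0.37 for RBPJ (6.52e-05). It was -1.37 for JAG2 (1.3e-08), -0.70 for NCSTN (3.78e-08) and -0.26 for JAG1 (0.00898). The line and the time of knockdown, 24 h in H2122 and 72 h in H460, differ together and cannot be told apart.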

How the results depend on the processing

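The 90 changes of the 9 genes over all comparisons kept their direction and their side of the threshold in 90 of 90 cases with a pseudocount of 0.1, in 90 of 90 with the replicate number as a replicate block, in 86 with no filter on low genes, in 72 on recovered reads, in 71 after rescaling to a common total and in 555 of 594 cases with 1 library left out. Whether the replicate numbers pair the libraries is not stated in the labels. In deviations from the group mean, same-numbered libraries correlated at -0.09 to 0.13 in H460, 0.05 to 0.13 in H2122 and -0.03 to 0.07 in the compound groups. Differently numbered libraries correlated at -0.16 to 0.16, -0.10 to 0.01 and -0.07 to 0.06 in that order. In H2122 every same-numbered pair lay above every other pair, and 3 libraries per group are too few to settle a pairing. With the replicate block, 8046 genes were called for shSNW1 against shGFP, beside 8020 without it. For all changes below the cause was not tested.

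After rescaling, the sign turned for RBPJ in shSNW1 (0.039) and H460 shNRF2 cells (0.056), for NOTCH3 (0.11, now called) and HEY1 (0.082) in H2122, for the HEY1 interaction (0.018), for NOTCH1 (0.0098), NOTCH2 (0.046) and NCSTN (0.013) with BPK29 against DMSO, for JAG2 with BPK9 against DMSO (0.0084), and for NOTCH1 (0.037) and NOTCH2 (0.029) between BPK29 and BPK9. On recovered reads it turned for RBPJ in shSNW1 against shGFP (0.022) and against shNRF2 cells (0.10, now called), for NOTCH1 (0.0033), NOTCH2 (0.042) and NCSTN (0.0049) with BPK29 against DMSO, for JAG2 with BPK9 against DMSO (0.012), and for NOTCH1 (0.033) and NOTCH2 (0.023) between BPK29 and BPK9. With a library left out, values that changed sign ranged from -0.056 to 0.00046 for RBPJ in H460 shNRF2 cells, -0.091 to 0.021 for HEY1 in H2122 and -0.046 to 0.014 for NOTCH2 with BPK29. They ranged from -0.0196 to 0.0404 for NOTCH2, -0.045 to 0.0599 for JAG2 and -0.0243 to 0.0444 for RBPJ with BPK9 against DMSO, and from -0.0636 to 0.0261 for NOTCH1 between BPK29 and BPK9.

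The count of genes of the set called with BPK29 against DMSO, 4, was 2 without BPK29 replicate 2 and 2 to 4 over all libraries left out. For BPK9 against DMSO, 1 gene of the whole table was called, against 2 with no filter, 9 after rescaling, 245 on recovered reads and 1 to 2 with a library left out, and of the set 0, against 1 on recovered reads. Rescaling moved the median of all genes by 0.13 in H2122 shNRF2 cells and by 0.11 in shNR0B1 cells, and by at most 0.09 in size elsewhere. Higher genes made up 45.8% of the calls in shSNW1, 47.3% in shNR0B1 and 41.9% in BPK29 comparisons with their controls, and 58.7%, 63.5% and 63.6% after rescaling. Depth limits HES1 (45 to 92 reads) and HEY1 (9 to 47 reads) in H460 knockdown libraries. Peaks of NR0B1 near gene starts were not analysed here, since no annotation of the hg19 build was used.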
